A study of Drosophila melanogaster with 3 samples.

Results

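The regions described here are binding peaks of the transcription factor Ewg at main promoters with no head-to-head protein-coding partner nearby. They are the peaks of the authors' optimal set whose summit lay within 500 bp of the outermost 5′ start of a protein-coding gene, where no gene so hit had a head-to-head protein-coding neighbour with its own outermost start within 1000 bp. Of the 6793 peaks in the optimal set, 1510 met this rule. Another 1096 peaks lay at main starts where at least 1 gene had such a neighbour, called divergent promoters below. A further 671 lay within 500 bp of an internal or alternative start only, and 3516 lay farther from any protein-coding start. A neighbour counted as head-to-head only where its start lay upstream, so that the genes do not overlap. Overlapping opposite starts, non-coding neighbours and genes in tandem or inside other genes were not excluded. The position of the peaks relative to starts, and the arrangement of the genes, chose these classes and are therefore not results.

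The 3 samples formed 1 group and were labelled as biological replicates. Each was a collection of whole Drosophila melanogaster embryos of both sexes, 0 to 14 hours old. They came from a transgenic line that stably expresses ewg fused at its C-terminus to eGFP. Chromatin sheared by sonication to 200 to 800 bp was precipitated with an antibody against GFP. No untagged or untreated embryos were analysed here, and a peak from whole embryos does not show in which cells the protein was bound. The labels do not state whether the line keeps its own untagged ewg gene.

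Ewg, named after the erect wing mutation, is a sequence-specific transcription factor needed in developing neurons and indirect flight muscle. It is the fly homologue of NRF-1, which in vertebrates binds a GC-rich palindrome close to the starts of many housekeeping genes, those of mitochondrial function among them. Fly promoters carry their own sequence elements. The DRE is bound by DREF and the M1BP motif by M1BP, both found mainly at broadly active genes. GAGA repeats are bound by the GAGA factor Trl, whereas the TATA box and the initiator position the start of developmentally regulated genes.

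The sites below are shown because the motif results turn on them. Each is written 5′ to 3′ on the strand of its gene, with 20 bases on either side, from the dm6 reference assembly. Capitals mark the motif, and none of these windows overlaps an annotated exon. The first 4 hold an exact match to the NRF-1 palindrome within 100 bp of the summit. The searched form allows T or C at 1 central position, and E5 has the form with C, which is not fully self-complementary.
Drgx, chr2L:3662527-3662576: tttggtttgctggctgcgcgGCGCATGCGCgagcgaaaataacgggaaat
Dscam2, chr3L:7189988-7190037: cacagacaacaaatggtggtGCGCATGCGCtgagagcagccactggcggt
ChAT, chr3R:18705381-18705430: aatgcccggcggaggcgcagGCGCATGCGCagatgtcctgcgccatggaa
E5, chr3R:13875169-13875218: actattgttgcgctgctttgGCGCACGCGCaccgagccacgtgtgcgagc
The next 4 hold the half-site TGCGCA and are among the strongest of the 1510 peaks that carry it. The scrib window also holds an M1BP motif, left in lower case.
Boh2, chr2L:11178955-11179000: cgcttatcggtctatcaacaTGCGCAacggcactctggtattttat
G6P, chr2L:2815802-2815847: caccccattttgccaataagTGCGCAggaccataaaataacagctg
KaiR1D, chr3R:20866320-20866365: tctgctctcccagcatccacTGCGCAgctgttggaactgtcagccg
scrib, chr3R:26536204-26536249: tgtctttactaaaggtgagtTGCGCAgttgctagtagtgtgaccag
The last 6 hold other promoter motifs and no NRF-1-type site, and show a DRE (eEF1gamma, CG11151), the M1BP motif (Pp1alpha-96A, nst) or a GAGA repeat (CG1907, eyg).
eEF1gamma, chr3R:29220111-29220158: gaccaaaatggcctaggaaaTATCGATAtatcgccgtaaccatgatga
CG11151, chrX:13739444-13739491: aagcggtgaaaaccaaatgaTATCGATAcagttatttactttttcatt
Pp1alpha-96A, chr3R:24518181-24518231: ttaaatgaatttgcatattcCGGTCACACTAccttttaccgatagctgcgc
nst, chr3L:12530173-12530223: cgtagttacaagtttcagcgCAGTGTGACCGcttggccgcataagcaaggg
CG1907, chr3R:29618914-29618960: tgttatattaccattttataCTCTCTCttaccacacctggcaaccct
eyg, chr3L:12468142-12468188: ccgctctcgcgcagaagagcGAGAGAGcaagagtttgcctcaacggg
In Drgx and Dscam2 the palindrome began 198 bp and 86 bp upstream of the start, and in ChAT and E5 it began 100 bp and 282 bp upstream. The half-sites of Boh2, G6P, KaiR1D and scrib began 57, 67, 114 and 126 bp upstream. A palindrome holds the half-site only where the right base flanks it, so the 2 searches overlap in part. An NRF-1-type site below means the half-site, or the palindrome with at most 1 mismatch, within 100 bp of a summit.

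Peaks at non-divergent promoters covered the starts of 1457 genes. Including 6 genes bound only through a peak shared with a divergent gene, 1463 of 9295 non-divergent genes were bound, a share of 15.7%. The bound share was close to even over the genome, between 15.2% on 2R and 16.4% on X, with 10 of 64 genes bound on the small chromosome 4. Of the 1510 peaks, 1437 hit 1 main start, 70 hit 2 and 3 hit 3. More than 1 such peak was found at 127 genes. In the strongest 6793 regions of each replicate alone, the bound share was 15.7% ± 1.36 of non-divergent genes, against 38.4% ± 1.42 of divergent genes (SD, n = 3). The difference was −22.6 ± 0.528 percentage points and had the same sign in 3 of 3 replicates. An exact sign-flip permutation test over the replicates (two-sided) gave p = 0.25, the smallest value that 3 replicates allow. Both genes of a divergent pair are counted at a shared peak, and the share per pair was not computed.

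Most peaks at non-divergent promoters were present in each collection. The optimal set was itself thresholded by irreproducible discovery rate on these same collections, so this is a description and not independent support. A peak was called present in a replicate if a summit lay within 100 bp among that replicate's 6793 strongest regions. By this measure 999 of the 1510 were present in all 3 replicates, or 66.2%, set beside 62.1% of the whole optimal set, and 11 were present in none. Replicates 1, 2 and 3 held 84.5%, 88.7% and 80.1% of them, against 82.4%, 82.8% and 78.5% for divergent promoter peaks. The difference of 3.23 ± 2.34 percentage points was positive in 3 of 3 replicates (exact sign-flip permutation test, p = 0.25). It averaged 1.89 without replicate 2, and 1.71 in the stronger 50% of peaks (exact p = 1). Against peaks away from promoters it was 2.03 ± 5.91 points, positive in 2 of 3 (exact p = 0.75). Without replicate 2 that difference averaged −0.944. Matched summits lay a median of 14, 8 and 12 bp from the optimal summit in replicates 1, 2 and 3.

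Replicate 2 stood apart from the other two. Signals of the 1297 peaks matched in all 3 permissive lists were first divided by each replicate's median over all 5852 optimal peaks matched in this way, and are called relative signal below. On the log2 scale, Pearson's r over the 1297 peaks was 0.89 between replicates 1 and 3, but 0.78 between 1 and 2 and 0.77 between 2 and 3. Peaks of 1 library share its depth and background, so these are descriptions only. Read depth is unknown from these lists. Results that rest on replicate 2 are given with and without it.

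The median log2 relative signal at non-divergent promoters was 0.17, 0.34 and 0.16 in replicates 1, 2 and 3, against −0.17, −0.20 and −0.12 for peaks away from promoters. The difference of 0.39 ± 0.14 (SD, n = 3) was positive in 3 of 3 replicates (exact sign-flip permutation test, p = 0.25). Against divergent promoter peaks, which had 0.28, 0.05 and 0.17, it was 0.05 ± 0.21, positive in replicate 2 alone (exact p = 1). It averaged −0.06 without replicate 2, so no direction can be given. Against peaks at internal starts it was −0.01 ± 0.01 (exact p = 0.5). The typical peak had a replicate SD of 0.37 on the log2 scale, smaller than the SD of 1.03 between the peaks themselves.

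**Figure D1:**
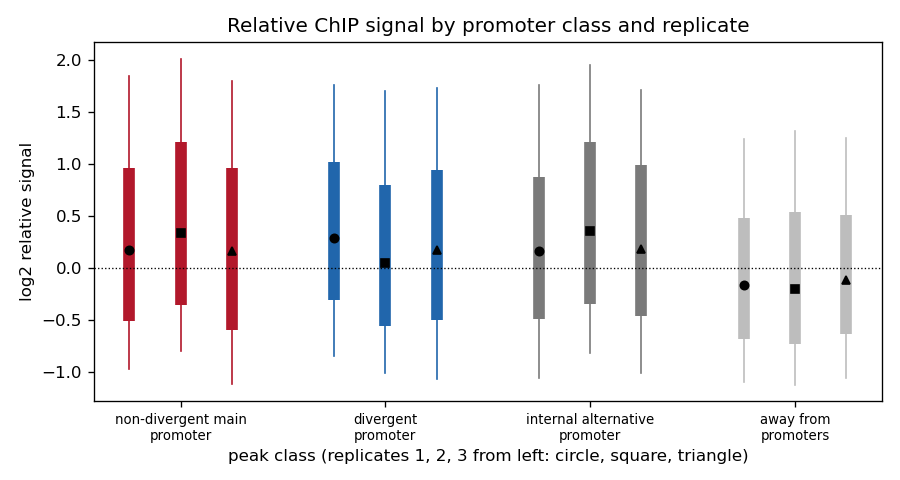
Log2 relative signal (vertical axis) of peaks in 4 classes, non-divergent promoters leftmost, with the 3 replicates of each class side by side. Thick bars span the 25th to 75th percentile over peaks, thin lines the 10th to 90th, and black symbols mark medians, which lie between 0.16 and 0.34 at non-divergent promoters and between −0.20 and −0.12 away from promoters.

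The strongest peaks of the whole data set were often at non-divergent promoters. They made up 22.2% of the optimal set, but 39 of its 100 strongest peaks and 317 of its 1000 strongest. The pooled signal, the authors' own value, had a median of 309.2 and ran between 141.9 and 4998.8. The strongest peak of all lay at CG31688 on 2L, with a relative signal of 15.6, 20.1 and 15.1 in replicates 1, 2 and 3. It was followed among the 1510 by gprs with 10.4, 15.7 and 10.8, and by CG14100 with 13.3, 9.54 and 14.8. The gene stj encodes an accessory subunit of voltage-gated calcium channels and ranked 8 in the optimal set. Its relative signal was 8.89, 14.6 and 9.35. Rtnl1, which encodes an ER-shaping reticulon, had 9.91, 11.4 and 8.98. All 5 exceeded the median peak severalfold in every replicate. Replicate 2 was the highest at 4 of them and the lowest at CG14100.

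The other strong promoters served varied functions. G6P, which encodes glucose-6-phosphatase, averaged 9.08 ± 0.739 in relative signal (SD, n = 3). KaiR1D, a kainate-type glutamate receptor subunit, averaged 7.88 ± 1.58. Rab3, the small GTPase of synaptic vesicles, averaged 7.39 ± 2.25. Polr2F, a shared subunit of RNA polymerases, averaged 8.24 ± 0.818, and Su(var)3-3, a histone demethylase, 7.60 ± 1.10. Of the 20 strongest peaks, 13 had an NRF-1-type site within 100 bp of the summit, set beside 399 of the 1510 (26.4%), 1 had a DRE or M1BP motif and 1 had GAGA. Replicate 2 gave the highest relative signal at 14 of the 20.

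Some promoters had nearly the same relative signal in all 3 collections and others did not. Dysb, the fly dysbindin, had a relative signal of 1.53, 1.51 and 1.53, and rdgC, a photoreceptor phosphatase, 4.23, 4.14 and 4.22. Tpr2, which encodes a co-chaperone, averaged 2.04 ± 0.0313 (SD, n = 3). Pde8, a cyclic nucleotide phosphodiesterase, had 0.770, 2.75 and 0.622, and Lmx1a, a LIM-homeobox gene, 0.944, 3.84 and 1.54. DnaJ-H, a co-chaperone gene that shares its peak with Sirt1, had 0.906, 3.23 and 0.897. In each of these 3 widely varying genes the high value came from replicate 2.

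The promoter of ewg itself was among the bound starts. The gene lies on the minus strand at chrX:268509-279718, and its outermost start at 279718 overlaps that of CG3777 on the other strand by 15 bp. The pair is head-to-head only if overlapping starts are counted. The peak at chrX:278861-279783 had its summit at 279540, 178 bp downstream of the ewg start. That summit lay closer to the start of CG3777, which shares the peak, and upstream of it. The peak therefore cannot be assigned to ewg alone. The peak had a relative signal of 5.57, 4.39 and 4.31 in replicates 1, 2 and 3, and ranked 217 in the optimal set. A DRE lay within 100 bp of the summit, and no NRF-1-type site did. Such overlapping 5′ ends were found at 277 non-divergent genes, of which 102 were bound (36.8%).

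Summits at non-divergent promoters lay mostly upstream of the start. The median position was 90 bp upstream (offset −90 bp), with quartiles at −203 and −9 bp, and 76.6% were upstream. When the rule was applied to each replicate's own strongest regions, 78.1%, 73.3% and 77.5% were upstream in replicates 1, 2 and 3, a mean of 76.3% ± 2.60. The medians were −98, −73 and −108 bp. In the strongest 25% of the peaks the median was −118.5 bp and 85.2% were upstream, against −60 bp and 70.0% in the weakest 25%. With an NRF-1-type site the median was −75 bp. With a DRE or M1BP motif and no such site it was −41 bp, and with none of these it was −107 bp. Only the 500 bp limit was set by the choice of peaks, not the side on which they lay.

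**Figure D2:**
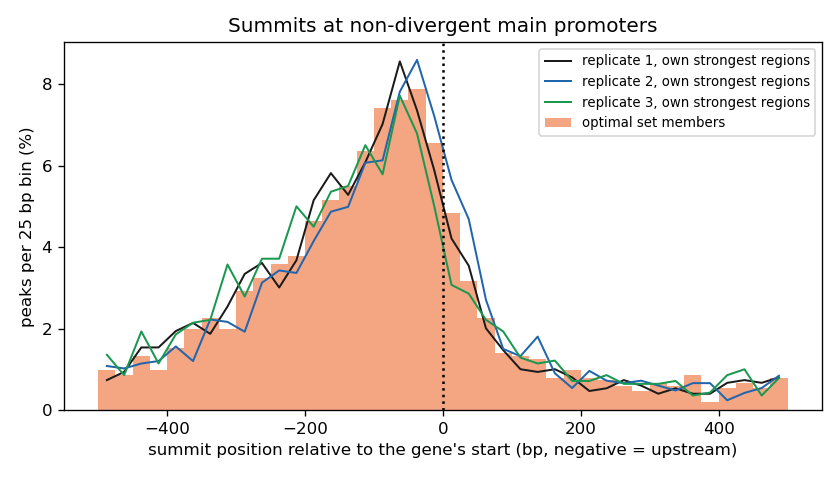
Position of summits relative to the gene's start (horizontal axis, bp, negative upstream) as a percentage of peaks per 25 bp bin, for the 1510 peaks (bars) and for each replicate's own strongest regions (lines). All 4 distributions peak upstream of the start, with 76.6% of the 1510 summits on that side.

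A few strong peaks lay near the edge of the window. Among the strongest beyond 400 bp were those at Oseg2, an intraflagellar transport gene, at −433 bp, and Atxn7, a SAGA complex subunit gene, at 479 bp. In the last 50 bp inside the limit, 47 peaks had a median pooled signal of 282.5, and 14.9% had the half-site. In the first 50 bp outside, 63 peaks had 301.2 and 22.2%. At the other threshold, 27 peaks whose nearest head-to-head start lay up to 100 bp beyond the 1000 bp limit had a median of 272.6, and 25 divergent peaks with it up to 100 bp inside had 309.9. The half-site was present in 22.2% of the 27 and in 8% of the 25.

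The NRF-1 half-site was the motif most frequent at summits of non-divergent promoters. TGCGCA, sought on both strands, lay within 100 bp of 297 of the 1510 summits, 19.7%, against 129 of 1096 divergent summits, 11.8%. Windows shifted by 1000 bp held it at 5.26% and 6.07%. In the replicates' own strongest regions the shares were 17.7%, 19.7% and 19.1% for non-divergent and 10.6%, 12.2% and 10.6% for divergent promoters. The difference of 7.73 ± 0.698 percentage points was positive in 3 of 3 replicates (exact sign-flip permutation test, p = 0.25). Peaks at internal starts had 19.4% and peaks away from promoters 17.4%. Against those away from promoters the replicate difference was 3.44, −0.663 and 5.45 points, and so changed sign in replicate 2 (exact p = 0.5). Density was highest next to the summit, with 185.4 half-sites per 100 kb within 24 bp and 39.4 at 100 to 199 bp. Divergent promoters had 85.8 and 28.7, internal starts 187.8 and 40.2, and peaks away from promoters 182 and 32.3.

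GC content moved with this difference. Windows of 100 bp on either side of the summit averaged 42.8% GC at non-divergent and 37.6% at divergent promoters. In windows below 35% GC the half-site share was 5.84% of 394 non-divergent and 5.70% of 456 divergent peaks. From 35% to below 40% GC it was 12.6% and 13.04%. From 40% to below 45% it was 19.8% of 242 and 12.1% of 165, and from 45% upwards 30.4% of 651 and 22.5% of 222. The shares were thus close in AT-rich windows and apart in the richer ones. The part that base composition has in the difference was not tested.

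The NRF-1 palindrome with at most 1 mismatch, on both strands, followed the half-site. It was present at 177 non-divergent summits, 11.7%, against 65 divergent ones, 5.93%. The replicate differences were 4.96, 5.08 and 5.01 points, a mean of 5.01 ± 0.0607 (exact sign-flip permutation p = 0.25). Peaks at internal starts had 12.4%, and peaks away from promoters 11.0%. The exact palindrome was rarer, at 24 non-divergent summits (1.59%) and 8 divergent ones (0.730%). RabX4, a Rab-family GTPase gene, had the strongest of the 24, with a relative signal of 4.74, 7.91 and 4.21 in replicates 1, 2 and 3. Drgx, a paired-type homeobox gene, had 4.06, 5.84 and 3.88. Dscam2, a neuronal cell-recognition gene of the immunoglobulin family, had 2.71, 3.55 and 2.12. Ama, which encodes a secreted immunoglobulin-domain protein, averaged 2.74 ± 0.764 (SD, n = 3), and CG14591 2.51 ± 0.787. Replicate 2 was the highest at all 5.

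The other motifs divided the promoter classes differently. The DRE (TATCGATA) lay at 5.76% of non-divergent against 11.6% of divergent summits, a replicate difference of −4.68 ± 0.608 points with the same sign in 3 of 3. The GAGA motif, searched as GAGAGAG, showed the opposite, with 11.4% against 2.74% and a difference of 7.69 ± 0.920 points in 3 of 3. Both had an exact sign-flip permutation p of 0.25. The M1BP motif was at 3.84% against 5.02%, a difference of −1.10 ± 0.472 points. The E-box CAGCTG was at 15.5% against 15.2%. Peaks at internal starts had GAGA at 17.4%, above non-divergent promoters in 3 of 3 replicates (−6.94 ± 1.09 points, exact p = 0.25). In peaks away from promoters the DRE reached only 0.370%, and GAGA 10.3%.

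**Figure D3:**
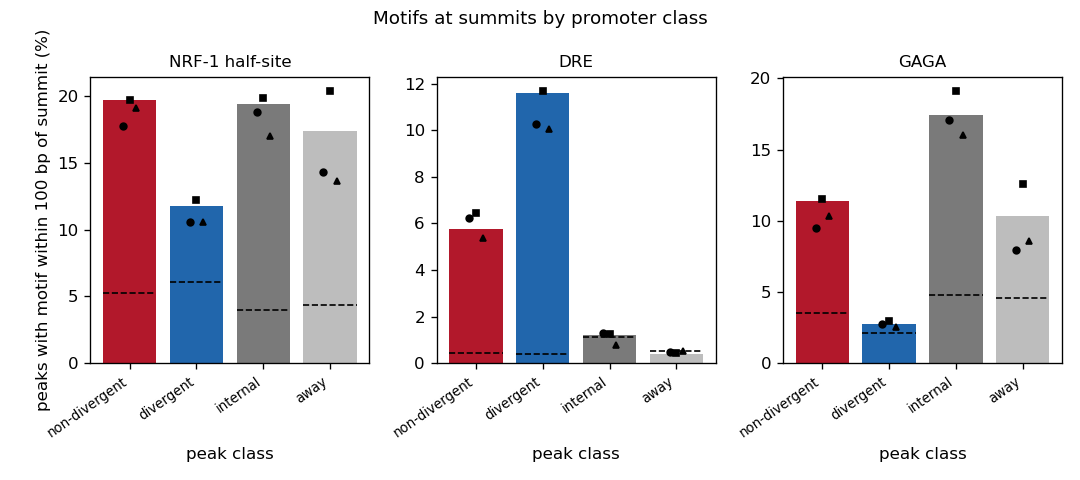
Percentage of peaks with the NRF-1 half-site, the DRE or GAGA within 100 bp of the summit (vertical axes), by class, non-divergent promoters leftmost. Bars give the optimal set, symbols the replicates' own strongest regions (circle 1, square 2, triangle 3) and dashed lines windows shifted by 1000 bp, and the DRE is the one motif of the 3 with its highest bar at divergent promoters (11.6%).

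Head-to-head distance was examined beyond the 1000 bp limit. The half-site share was 10.2% of 265 promoter peaks with a neighbouring start at up to 200 bp, 10.04% between 200 and 400 bp and 15.2% between 400 and 1000 bp. On the non-divergent side it was 22.5% between 1000 and 2000 bp, 22.1% between 2000 and 5000 bp and 17.9% of 903 beyond 5000 bp or with no such neighbour. Over the replicates the same 6 bins averaged 11.0% ± 1.55, 9.02% ± 0.353, 13.9% ± 1.95, 23.9% ± 2.09, 19.99% ± 1.15 and 17.2% ± 1.35. DRE or M1BP motifs were at 20.8% in the closest bin and 8.20% in the farthest, while GAGA was at 1.51% in the closest and 13.1% in the farthest.

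Signal and motif went together at non-divergent promoters. An NRF-1-type site was present at 399 of the 1510 peaks. The medians given here and for the other motifs cover only peaks matched in all 3 permissive lists, 359 with such a site and 938 without. With a site the median log2 relative signal was 0.46, 0.98 and 0.44 in replicates 1, 2 and 3, against 0.09, 0.08 and 0.06 without. The difference was 0.55 ± 0.30 (SD, n = 3), positive in 3 of 3 (exact sign-flip permutation p = 0.25). It was 0.90 in replicate 2, against 0.37 in replicate 1 and 0.38 in replicate 3, and averaged 0.37 without replicate 2. A DRE or M1BP motif was present at 141 peaks, with medians of 0.03, −0.03 and −0.28. GAGA was present at 172, with 0.30, 0.93 and 0.38. The 53 peaks with both GAGA and an NRF-1-type site had 0.96, 1.64 and 0.89. None of the 3 kinds of motif was found at 881 peaks, 58.3%, whose medians were 0.11, 0.07 and 0.11. Of the strongest 25%, 29.1% had the half-site and 6.35% a DRE or M1BP motif, against 11.7% and 14.1% of the weakest 25%. Divergent promoter peaks showed the same order. Their shares were 20.8% and 12.8% in the strongest 25%, against 6.57% and 19.3% in the weakest 25%.

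Single promoters illustrate the groups. ChAT, which encodes the enzyme that makes acetylcholine, holds the palindrome printed above and had a relative signal of 1.38, 2.99 and 1.74 in replicates 1, 2 and 3. The cell polarity gene scrib, with a half-site 13 bp from the summit and an M1BP motif within 100 bp of it, had 7.45, 8.08 and 5.79. The elongation factor gene eEF1gamma, with a DRE 5 bp from the summit, had 3.39, 2.67 and 2.54. Pp1alpha-96A, a protein phosphatase catalytic subunit gene with the M1BP motif, had 1.91, 2.02 and 1.62, and CG1907, with GAGA, 8.29, 7.61 and 8.97. Replicate 2 was the highest at ChAT, scrib and Pp1alpha-96A and the lowest at CG1907.

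Counted over promoters from 200 bp upstream to 50 bp downstream of the start, the half-site again stood out. It was present in 16.8% of the bound and 4.24% of the unbound non-divergent promoters, and in 6.12% of all promoters. The replicate difference was 11.7 ± 0.533 points in 3 of 3 (exact sign-flip permutation p = 0.25). Of the 577 non-divergent promoters with it, 42.5% were bound, set beside 15.7% of all. With the palindrome at 1 mismatch at most, 139 of 256 were bound, 54.3%, and 2.40% of all promoters hold it. Bound non-divergent promoters averaged 43.8% GC and unbound ones 40%. Below 35% GC the half-site occurred in 5.38% of the bound ones and 2.13% of the unbound ones, from 35% to below 40% in 12.97% and 3.59%, from 40% to below 45% in 14.5% and 5.13%, and from 45% upwards in 23.7% and 6.53%. The half-site share of bound promoters was the higher one in each of the 4 GC classes.

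Half-sites of bound promoters clustered around the start and were densest just upstream of it. At −100 to −51 bp there were 48.5 per 1000 bound non-divergent promoters per 50 bp. At 0 to 49 bp there were 35.5, and at 50 to 99 bp 15.04. Bound divergent promoters had their highest value, 28.2, at −50 to −1 bp.

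**Figure D4:**
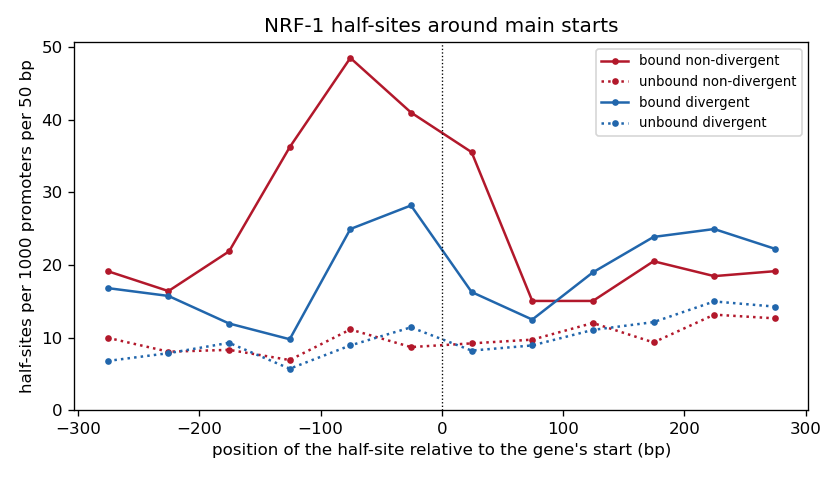
Number of NRF-1 half-sites per 1000 promoters in 50 bp bins (vertical axis) by position relative to the gene's start (horizontal axis, bp), for bound and unbound non-divergent and divergent promoters. Bound non-divergent promoters reach 48.5 at −100 to −51 bp.

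Core promoter elements differed between bound and unbound non-divergent promoters as well. The TATA box (TATAAA, 45 to 15 bp upstream, on the gene's strand) occurred in 3.55% of the bound promoters, 11.5% of the unbound ones and 8.81% of all. Its replicate difference was −7.89 ± 0.312 points with the same sign in 3 of 3. Of 955 non-divergent promoters with a TATA box, 52 were bound, or 5.4%, set beside 15.7% of all non-divergent ones. Among divergent promoters the TATA box was likewise rarer in bound ones, at 2.06% against 8.41% of the unbound ones. GAGA occurred in 14.4% of the bound non-divergent promoters, 4.83% of the unbound ones and 5.25% of all promoters, a difference of 9.20 ± 0.422. The initiator (TCAGT or TCATT within 10 bp of the start, on the gene's strand) was in 22.6% and 19.0%, and in 16.3% of all, a difference of 3.07 ± 0.633. The DRE was in 7.52% and 5.18%, and in 8.68% of all, a difference of 2.64 ± 0.672. The M1BP motif was in 5.47% and 2.25%, and in 4.21% of all, a difference of 2.98 ± 0.688. The E-box was in 19.7% and 13.1%, and in 15.9% of all, a difference of 6.543 ± 0.366. Each of these differences had the same sign in 3 of 3 replicates and an exact sign-flip permutation p of 0.25. With only the unbound promoters that have a permissive region as background, the DRE difference was 0.260 points (exact p = 0.75) and the M1BP difference 0.927 points (exact p = 0.5), so neither kept 1 sign. GAGA was then at 5.40 points, the E-box at 3.73, the initiator at 1.34 and the TATA box at −3.69, and the DRE difference was 0.973 points in the stronger 50% of peaks.

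Bound non-divergent genes were longer than unbound ones. Their median annotated length was 5484 bp, against 1878 bp. In replicates 1, 2 and 3 the medians were 5185, 5649 and 5343 bp for bound genes and 1894, 1850 and 1900 bp for unbound genes. The log2 difference was 1.52 ± 0.08, positive in 3 of 3 (exact sign-flip permutation p = 0.25). Of genes up to 1000 bp, 3.73% were bound, and of those between 10000 and 20000 bp, 36.0%. The share was 25.6% above 50000 bp. Bound genes had more than 1 transcript start in 43.2%, against 22.3% of unbound genes. In genes over 5000 bp the bound share was 31.4% with more than 1 start and 29.96% with 1. In shorter genes it was 20.7% and 8.23%. By upstream neighbour, 15.7% were bound where it lay in tandem and 17.4% where it lay head-to-head beyond 1000 bp. Of the 277 genes with overlapping opposite 5′ ends within 1000 bp, 36.8% were bound.

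**Figure D5:**
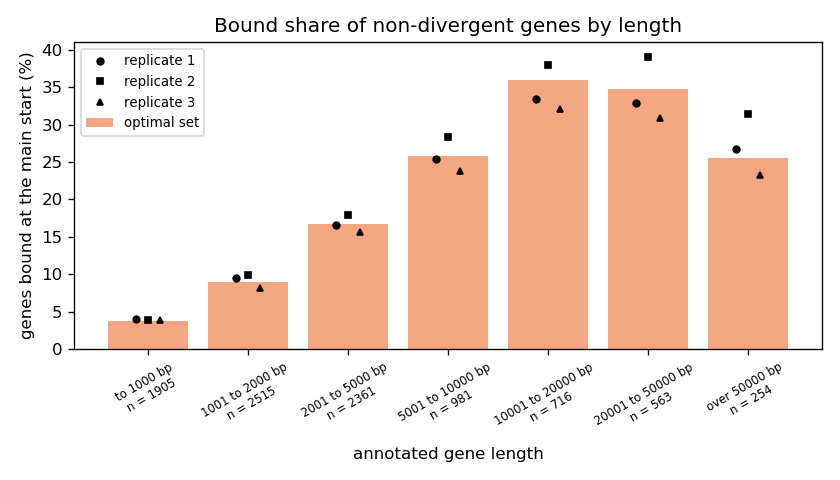
Percentage of non-divergent genes bound at the main start (vertical axis) by annotated gene length (horizontal axis, number of genes below each class), for the optimal set (bars) and each replicate's own strongest regions (symbols). The share is 3.73% up to 1000 bp and 36.0% between 10000 and 20000 bp.

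Many of these genes held further peaks inside them. At least 1 optimal peak of the internal or away classes lay within 416 of the 1463 bound genes, 28.4%, against 8.64% of the unbound ones. Within length classes the shares were 5.93% against 1.69% up to 5000 bp, 40.1% against 23.0% between 5000 and 20000 bp, and 65.1% against 54.1% above that. The most were found in sbb, a transcriptional corepressor gene, with 15, followed by InR, the insulin receptor gene, and dnc, a cyclic AMP phosphodiesterase gene, with 12 each. Next came tara with 11 and Dys, the dystrophin gene, with 9.

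Gene groups with housekeeping roles were examined first, each as the number of its non-divergent genes bound in the optimal set, beside 15.7% of all non-divergent genes. Cytosolic ribosomal protein genes were bound at 23 of 38, or 60.5%, with 27, 24 and 21 bound in replicates 1, 2 and 3. Of the 23, 8 had a DRE or M1BP motif and 5 an NRF-1-type site, set beside 9.34% and 26.4% of all 1510 peaks. RpL22 had a relative signal of 4.02, 3.33 and 3.17, and RpL23A 3.79, 2.92 and 3.06. RpL41 averaged 2.51 ± 0.472 (SD, n = 3). Replicate 1 was the highest at these 3 genes. Translation factor genes were bound at 10 of 28, with 4 DRE or M1BP motifs and no NRF-1-type site among them. The ribosome biogenesis and initiation factor gene eIF6 averaged 5.47 ± 1.23, and eIF4G2, whose peak is shared with CG33111, 4.83 ± 0.0988.

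Genes of energy metabolism varied by group. Mitochondrial ribosomal protein genes were bound at 3 of 18 non-divergent promoters, against 31 of 57 divergent ones, beside 1844 of all 4650 divergent genes. Of the 3, mRpL53 and tko were at peaks with no divergent start, with a relative signal of 5.02 ± 0.193 and 0.916 ± 0.458. The mRpL53 peak is shared with CG33155. Genes of the respiratory chain and ATP synthase were bound at 12 of 50, against 20 of 40 divergent ones. ND-MWFE averaged 2.39 ± 0.768, ND-ASHI 1.501 ± 0.119 and ND-15 1.16 ± 0.266, all subunits of complex I. Of glycolytic enzyme genes, Gapdh2, Ldh, Hex-A and Pgk were bound out of 8, while Tpi, Ald1, Pfk and Hex-C were not. Gapdh2 had a relative signal of 3.73, 4.30 and 4.80. The vacuolar proton pump had 5 of 18 bound, with VhaAC45RP at 3.06 ± 1.57 and VhaAC39-2 at 2.72 ± 0.570, and Vha16-1 at 1.35 ± 0.130, besides Vha68-2 and VhaM9.7-c.

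Other maintenance genes were bound at shares on either side of the background. Proteasome subunits, which here include testis-specific relatives, were bound at 3 of 26, namely Rpn9, Rpn6 and Rpn11. Their relative signals averaged 1.30 ± 0.201, 0.805 ± 0.199 and 0.514 ± 0.206. The Rpn9 summit lay 199 bp inside that gene. The Rpn6 summit lay 499 bp inside that gene and closer to the start of ave, which shares the peak. Aminoacyl-tRNA synthetase genes were bound at 2 of 12, SerRS, which shares its peak with CG17260, at 1.88 ± 0.685 and AspRS-m at 0.650 ± 0.220. Heat shock and chaperone genes were bound at 2 of 18, Hsp27 at 4.74 ± 0.834 and Hsp26 at 3.02 ± 0.752. Splicing factor genes were rarely non-divergent, with SC35 bound at a peak nearer to the start of eRF3 and crn and snRNP-U1-70K not. DNA replication and cell cycle genes were bound at 7 of 21, but at 3 with starts within 250 bp and 11 within 1000 bp. E2f2 and Dp, the repressor E2F and its partner, averaged 3.32 ± 0.184 and 2.10 ± 0.199, and dup, a replication licensing factor, 1.26 ± 0.146. The E2f2 summit lay 465 bp inside that gene and 4 bp from the start of Mpp6, the dup summit was nearer to the start of SRPK, and Dp shares its peak with Fsn.

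Genes of neurons and glia came next. Synaptic vesicle and active zone genes were bound at 16 of 31, with 16, 19 and 17 in replicates 1, 2 and 3, and 9 of the 16 had an NRF-1-type site, set beside 26.4% of all 1510 peaks. Besides stj and Rab3, shi, the dynamin gene, had a relative signal of 4.22, 5.32 and 3.81. Axon guidance and adhesion genes were bound at 15 of 33, with 14, 23 and 12 in the replicates, so that replicate 2 gave by far the most. Next to Dscam2, the semaphorin receptor gene PlexA averaged 2.42 ± 0.883 and the receptor phosphatase gene Lar 2.03 ± 0.898. Nearly all of these genes are long, with 28 of 31 and 32 of 33 over 5000 bp, and 30.7% of all non-divergent genes of that length were bound. Glial genes were bound at 4 of 9, 3 of them with an NRF-1-type site. The bound glial genes included moody, a blood-brain barrier receptor, at 2.92 ± 0.239 and without such a site. Also bound were gcm, the glial fate determinant, at 1.69 ± 1.02, and Gli at 1.62 ± 0.706. The glial homeobox gene repo averaged 0.526 ± 0.116.

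Developmental regulators followed. Patterning transcription factor genes were bound at 17 of 34, with 13, 18 and 13 in replicates 1, 2 and 3, and 6 of the 17 had GAGA, set beside 11.4% of all 1510 peaks. The segment polarity gene en had a relative signal of 6.48, 7.85 and 5.22, the pair-rule gene opa 3.29, 5.39 and 3.32, and the homeotic gene Dfd 2.56, 4.67 and 2.39. Replicate 2 was the highest at each. Wnt pathway genes were bound at 7 of 22, among them ebd1 at 4.14 ± 1.18, the corepressor gene gro at 2.58 ± 0.299 and the inhibitor gene nkd at 1.04 ± 0.202. Chromatin regulators were bound at 5 of 9. The neighbouring Polycomb group genes ph-p and ph-d averaged 4.47 ± 1.06 and 2.08 ± 0.785. Psc had 0.896 and 0.794 in replicates 1 and 3 and no matched summit in replicate 2. The other two bound genes were trx, a Trithorax group gene, and esc, another Polycomb group gene. The promoters of Sce, osa, kis and pho were not bound. Among the patterning, Wnt and chromatin genes, 16 of 34, 16 of 22 and 7 of 9 exceeded 5000 bp. At that length 30.7% of all non-divergent genes were bound.

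Muscle genes were bound at 3 of 26, namely sls, the titin-like gene, at 1.94 ± 0.414, hbs at 1.08 ± 0.0652 and Act87E at 0.979 ± 0.0416. With starts within 250 bp, 0 of the 26 were bound, against 12.4% of all non-divergent genes. Of the 26 muscle genes, 15 exceeded 5000 bp, a length at which 30.7% of all non-divergent genes were bound. Of 107 cuticle protein genes only Cpr31A was bound, and of 106 odorant and gustatory receptor genes none was, in the optimal set or in any replicate. These last 2 groups consist mostly of short genes, with 7 of 107 and 3 of 106 over 5000 bp.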

How the data were processed

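Peak lists on dm6 from 3 biological replicates were used. Per the file records, each replicate has a permissive list of peaks and background, and the optimal set was thresholded by irreproducible discovery rate. All lists trace to the replicates' alignments and a shared control alignment. The sources used here name neither the peak caller nor its settings. Peak signal is the authors' deposited value, on a scale not equalised between lists, and read depth is unknown. The dm3 lists were not used here.

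Genes came from Ensembl release 115 (13945 protein-coding, 4650 of them with a head-to-head neighbour) and sequence from the dm6 reference assembly. Gene classes, relative signal, presence, motifs and lists were computed as defined with the results, with numpy 2.4.6, scipy 1.17.1 and pandas 2.3.3 under Python 3.11.15 (figures with matplotlib 3.10.9). Scripts were tested on simulated sequences and genes. Replicate values for motifs, side of the summit, bound genes and gene length come from applying each rule to that replicate's 6793 strongest regions. Presence and relative signal were read at the optimal peaks with their classes fixed, and relative signal came from the whole permissive lists. Differences were tested by exact two-sided sign-flip permutation over the 3 replicates, which cannot give p below 0.25, so no difference can pass 0.05, with or without adjustment. Peaks and genes are not replicates, and no test was run over them.

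The members and lists were chosen with earlier results of these data known, and the half-site, the NRF-1-type site and the measures by GC, gene length and number of starts were chosen after seeing the data. Genes are named by a rule: ewg, the 20 strongest peaks, up to 3 per list by signal, the unbound genes of a list where fewer than 5 lack a peak, the 5 strongest with an exact palindrome, the 3 strongest beyond 400 bp and the 3 with the highest and lowest variation. Genes with printed sequences, those with the most further peaks, and Pgk, trx, esc, repo, Vha68-2 and VhaM9.7-c were named after their values were seen. Across the 20 lists, 9 symbols matched no gene of the annotation. Some genes are not reported here.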

Additional observations from a re-analysis of the deposited data

How the results depend on the processing

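The 23 results were recomputed under 200 alternative settings, of which 191 kept the direction or, for values with no test, stayed close to the reported value. Of these, 34 kept the direction but were more than 1.5 times larger or smaller, apart from the change to ranks, which has another scale. Besides the promoter motifs against the permissive background and presence against divergent peaks, given with the results, they include the half-site against divergent peaks at 4.96 points with neighbours within 2000 bp and the M1BP share at 1.34 points in the stronger 50% of peaks. They also include the bound share of non-divergent minus divergent genes, at −13.2 points in the stronger 50%. Keeping the stronger 50% of the optimal set left 869 peaks, with 80.5% of summits upstream, and a limit of 1000 bp to the start gave 68.9% upstream. With no rank limit, presence of non-divergent minus away peaks was −0.994 points. Median log2 relative signal of non-divergent minus divergent peaks was −0.0163 with starts within 1000 bp and −0.0337 with head-to-head neighbours within 500 bp. Against internal promoter peaks it was 0.00271 with neighbours within 2000 bp and 0.0256 in the stronger 50%. The exact palindrome, non-divergent minus away, was −1.11 points. The cause of these changes was not tested. Leaving out 1 replicate in turn gave −0.944 to 4.96 points for presence against away peaks and −0.0628 to 0.137 for signal against divergent peaks. The other results kept their sign without each replicate, and with 2 replicates no exact p below 0.5 is possible. Counting overlapping starts as head-to-head gave 1448 peaks, and counting non-coding neighbours 1427. The bound share of a gene list or of all genes moved by more than 1.5 times in 26 of 147 list and setting pairs. The stronger 50% of peaks left 9.37% of all non-divergent genes bound. The alternatives for the half-site, the DRE and GAGA at summits, signal by site, gene length and lists were chosen after seeing the data.

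With 1 group there are no conditions to contrast, and the unknown depth, the unequalised signal scales and the whole-embryo material limit what the levels mean. No paired analysis was possible because the 3 samples form 1 group. No value met the criteria for a closer look, since groups of 3 are not screened for outlying samples.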
